A study of Homo sapiens with 6 samples.

Results

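Cohesin and condensin are the ring-shaped protein complexes that hold sister chromatids together and fold mitotic chromosomes. The genes described here are 5 core subunits of mitotic cohesin (SMC1A, SMC3, RAD21, STAG1 and STAG2) and 5 subunits of condensin I (SMC2, SMC4, NCAPD2, NCAPG and NCAPH). They were taken by symbol from the deposited table, which gave 10 of its 32985 genes. The rule used no measured change, but earlier results of these data were known when the genes were chosen. The data are RNA-seq of 8505C, an established human anaplastic thyroid cancer cell line. In 3 libraries the cells had received a control siRNA (siCtrl, labelled wild type) and in 3 an siRNA against NUF2 (siNUF2, labelled knockdown), all for 24 h. NUF2 is a subunit of the NDC80 complex, which couples kinetochores to spindle microtubules. The knockdown rests on 1 siRNA in 1 cell line, and nothing in the labels says whether replicate libraries came from separate cultures, so the p-values measure the spread between these libraries, which may be technical.

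In cohesin, SMC1A and SMC3 form a V-shaped pair of ATPase arms that the kleisin RAD21 closes into a ring, and STAG1 or STAG2 binds RAD21. The ring embraces both sister DNAs from S phase until it is released or until separase cuts RAD21 at anaphase. Outside mitosis the ring also extrudes chromatin loops. In condensin I, SMC2 and SMC4 are the ATPase arms, NCAPH is the kleisin, and NCAPD2 and NCAPG are the HEAT-repeat subunits that bind DNA, and the complex reaches chromosomes after the nuclear envelope breaks down to compact them for segregation.

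The libraries held 61257859 to 69755291 counts, and each subunit had 3448 to 23120 counts in every library, so counting error was small beside the spread between replicates. Together the 10 genes took 0.139 to 0.169% of the counts. NUF2 itself stood at 14.8, 14.5 and 12.2 FPKM (fragments corrected for the length of the transcript and the size of the library) in siCtrl replicates 1, 2 and 3, and at 1.53, 2.05 and 1.56 FPKM in siNUF2. It fell by 2.99 on the log2 scale (SE 0.17, adjusted p = 5.1e-04, edgeR quasi-likelihood test, Benjamini-Hochberg adjusted over all genes tested). Of the 6 thyroid follicular cell markers in the table, NKX2-1 had a mean over 1 FPKM (14.6 to 21.5 over libraries). TG, which defines differentiated thyrocytes, was at or near 0, and of the 3 leukocyte markers in the table PTPRC and CD3E did not exceed 0.518 FPKM, while CD68 was at 3.48 to 6.82 FPKM. The mesenchymal marker VIM was at 452 to 521 FPKM, FN1 at 22.2 to 36.5 FPKM and CDH2 at 8.51 to 10.2 FPKM. Epithelial keratins were also present, with KRT18 at 137 to 205 FPKM, KRT8 at 72.0 to 99.2 FPKM and KRT19 at 5.37 to 12.4 FPKM. The epithelial markers EPCAM and CDH1 did not exceed 0.243 FPKM. In bulk RNA, a change in the share of cells in a cell cycle phase and a change in RNA per cell cannot be told apart.

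None of the 10 subunits passed the test between siNUF2 and siCtrl. With edgeR, 0 of 10 passed an adjusted p of 0.05, where 3.99% of the 11725 genes tested did, and 0 of 10 had an unadjusted p under 0.05, where 18.2% of all genes did. DESeq2 also called 0 of 10, where it called 8.29% of all genes. The median log2 fold change of the 10 genes was 0.06, against 0.01 over all genes tested, and their median absolute log2 fold change was 0.09, against 0.17. Their median SE in edgeR was also smaller, 0.12 against 0.15, so the absolute changes were not measured with equal precision. The 95% intervals of all 10 held 0 in this fit, and they ran from -0.45 to 0.51 on the log2 scale, which is a change from -26.7% to 42.7%. The FPKM ranges of the groups overlapped for every subunit, and they did not overlap for 23.9% of all genes. These comparisons leave out the replicate number. With it as a block in edgeR, the median SE of the 10 genes was 0.08 in place of 0.12. In the block fit 0 of 10 passed, where 14.5% of all genes did. The lowest adjusted p in that fit were 0.159 (RAD21), 0.186 (NCAPD2) and 0.200 (STAG2). A list of 10 genes could hold none at any of the shares given here, so a count of 0 does not set the subunits apart.

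**Figure D1:**
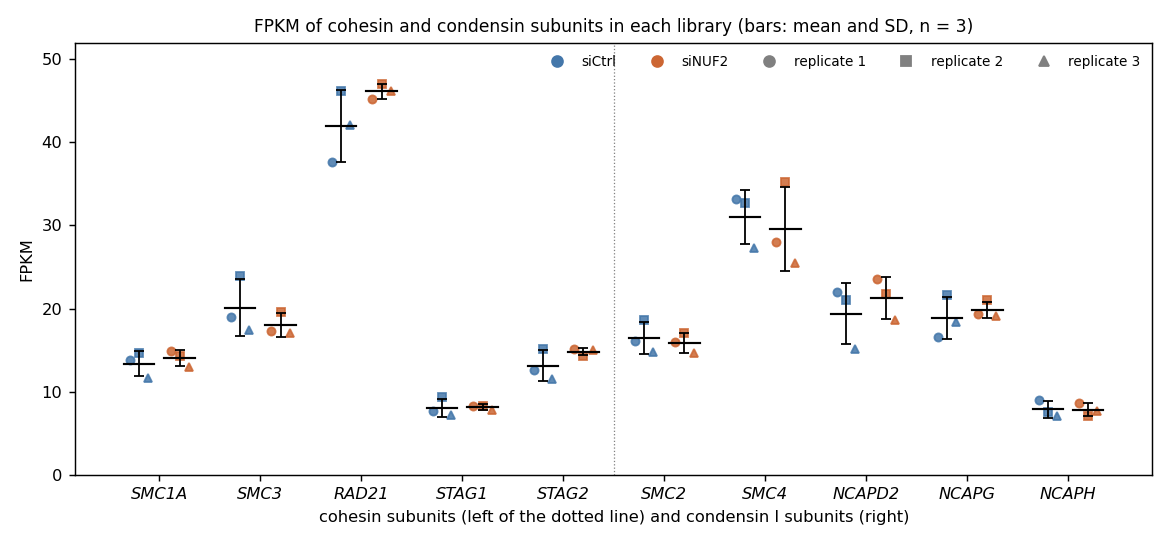
FPKM of each subunit in each library, with cohesin left and condensin I right of the dotted line. Points are libraries (colour gives the siRNA, shape the replicate number), and bars give the mean and SD of 3 libraries. The siCtrl and siNUF2 points overlap for all 10 genes, and RAD21 and SMC4 lie above the other 8 in both groups.

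The SMC arms of cohesin did not pass the test in either direction. SMC1A (ENSG00000072501, chrX:53374149-53422728, GRCh38, minus strand) encodes one ATPase arm. It was at 13.8, 14.6 and 11.7 FPKM in siCtrl and 14.9, 14.4 and 13.0 FPKM in siNUF2, with the lowest library in siCtrl and the highest in siNUF2. The log2 fold change of SMC1A was 0.09 (SE 0.11, edgeR adjusted p = 0.733), and 0.0057 without siCtrl replicate 3. SMC3 (ENSG00000108055, chr10:110567695-110606048, plus strand) encodes the other arm, whose head is acetylated when cohesion is established. It was at 18.9, 23.9 and 17.5 FPKM in siCtrl and 17.3, 19.6 and 17.1 FPKM in siNUF2. SMC3 was lower in siNUF2 at 3 of 3 replicate numbers, but siCtrl replicate 2 alone stood above all other libraries. For SMC3 the log2 fold change was -0.14 (SE 0.13, edgeR adjusted p = 0.665), and it was 0.00 without siCtrl replicate 2.

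RAD21 (ENSG00000164754, chr8:116845934-116874776, minus strand), the kleisin that separase cleaves, had the highest level of the 10 genes. It was at 37.6, 46.2 and 42.1 FPKM in siCtrl and at 45.3, 47.1 and 46.2 FPKM in siNUF2. The siNUF2 libraries lay close together (CV 1.96%) near the top of the siCtrl range, and RAD21 was higher in siNUF2 at 3 of 3 numbers. The log2 fold change was 0.16 (SE 0.10, edgeR adjusted p = 0.475). In the fit with the replicate number as a block, its interval was 0.0034 to 0.32 and its unadjusted p was 0.0464, the only one of the 10 under 0.05, with an adjusted p of 0.159. The block fit called 14.5% of all genes and 0 of the 10 subunits.

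STAG1 and STAG2 are alternative subunits, of which a cohesin ring holds one. STAG1 is known for its role at telomeres and STAG2 at centromeres, and STAG2 is recurrently inactivated in several cancers. STAG1 (ENSG00000118007, chr3:136336236-136752378, minus strand) was at 7.63, 9.33 and 7.18 FPKM in siCtrl and at 8.34, 8.31 and 7.75 FPKM in siNUF2, where the siNUF2 values lay inside the siCtrl range. STAG1 had a log2 fold change of 0.04 (SE 0.12, edgeR adjusted p = 0.919). STAG2 (ENSG00000101972, chrX:123960212-124102656, plus strand) was at 12.6, 15.2 and 11.6 FPKM in siCtrl and at 15.1, 14.3 and 15.1 FPKM in siNUF2. The siCtrl libraries spanned the whole siNUF2 range, since siCtrl replicate 2 was the highest of all. STAG2 had the largest fold change of the 10, 0.20 on the log2 scale (SE 0.11, edgeR adjusted p = 0.430).

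Within condensin I, the arms again overlapped between groups. SMC2 (ENSG00000136824, chr9:104094260-104141409, plus strand) was at 16.1, 18.6 and 14.8 FPKM in siCtrl and 15.9, 17.1 and 14.7 FPKM in siNUF2. Its siNUF2 value was slightly lower at 3 of 3 numbers, with a log2 fold change of -0.03 (SE 0.11, edgeR adjusted p = 0.922). SMC4 (ENSG00000113810, chr3:160399274-160434954, plus strand) was at 33.2, 32.7 and 27.3 FPKM in siCtrl and 28.0, 35.2 and 25.5 FPKM in siNUF2. It had the widest siNUF2 spread of the 10 genes (CV 17.05%), and both the highest and the lowest library were siNUF2. Its log2 fold change was -0.05 (SE 0.14, edgeR adjusted p = 0.904).

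NCAPD2, NCAPG and NCAPH complete the complex. NCAPD2 (ENSG00000010292, chr12:6493356-6531955, plus strand) was at 21.9, 21.03 and 15.2 FPKM in siCtrl and at 23.5, 21.8 and 18.6 FPKM in siNUF2, so that replicate 3 was the lowest library of each group. It was higher in siNUF2 at 3 of 3 numbers, with a log2 fold change of 0.16 (SE 0.16, edgeR adjusted p = 0.674), which was 0.0090 without siCtrl replicate 3. NCAPG (ENSG00000109805, chr4:17810979-17844865, plus strand) was at 16.6, 21.6 and 18.4 FPKM in siCtrl and 19.4, 20.99 and 19.2 FPKM in siNUF2, again with all siNUF2 values inside the siCtrl range. NCAPG had a log2 fold change of 0.09 (SE 0.12, edgeR adjusted p = 0.744), and 0.011 without siCtrl replicate 1. The kleisin NCAPH (ENSG00000121152, chr2:96335766-96377091, plus strand) was at 8.99, 7.56 and 7.09 FPKM in siCtrl and 8.63, 7.09 and 7.71 FPKM in siNUF2. Its log2 fold change was 0.01 (SE 0.12, edgeR adjusted p = 0.986), the closest to 0 of the 10.

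Counted by replicate number, 2 of 10 subunits (RAD21 and NCAPD2) were higher in siNUF2 at every number, as were 23.6% of all genes, and 2 of 10 (SMC3 and SMC2) were lower at every number, as were 27.8% of all genes. Several subunits share bases with a gene on the opposite strand, and whether the counting used strand is not stated. NCAPD2 shares 486 bp with MRPL51, STAG1 1661 bp with PCCB, RAD21 3530 bp with UTP23, NCAPG 3667 bp with LCORL and SMC4 2510 bp with TRIM59, so the split of reads between each pair is uncertain. SMC3, SMC2 and NCAPH overlap no other gene of the table.

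**Figure D2:**
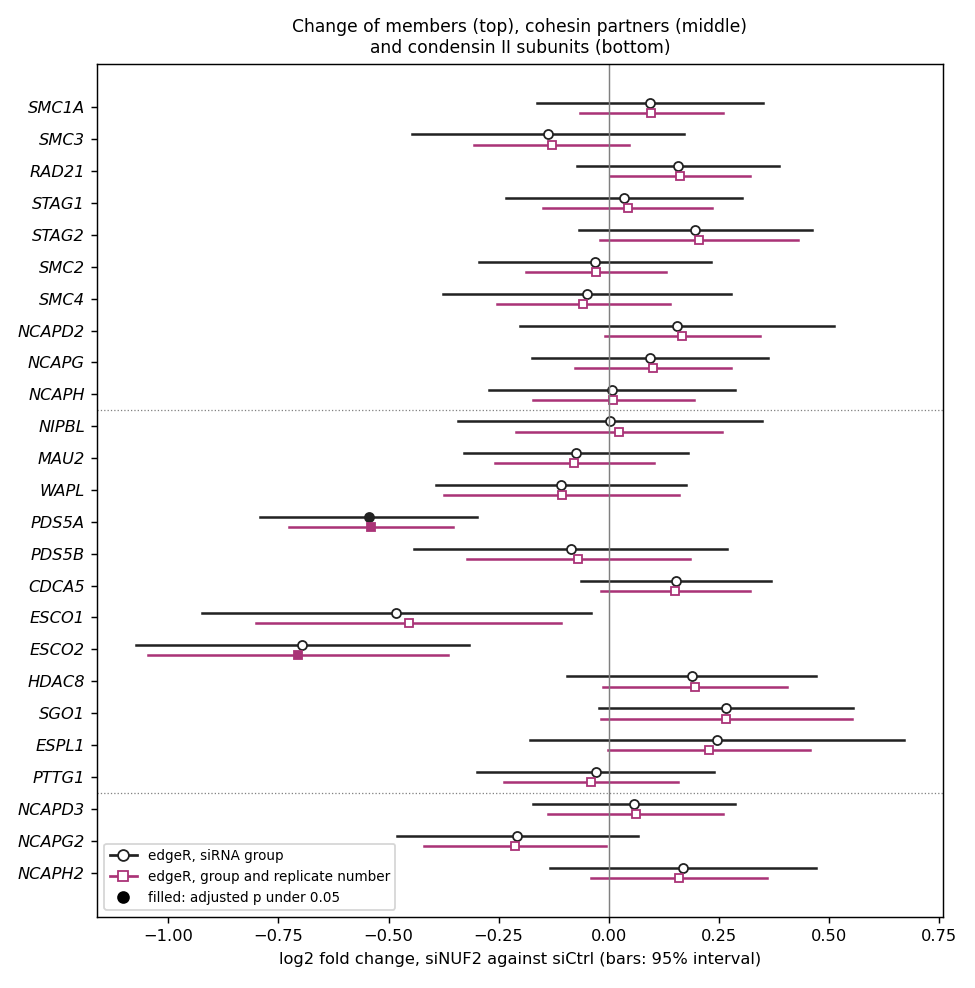
Log2 fold change of siNUF2 against siCtrl for the 10 subunits (top), 12 genes that act on cohesin (middle) and 3 subunits of condensin II (bottom), with 95% intervals. Circles are the fit on siRNA group, squares the fit with the replicate number as a block, and filled symbols have an adjusted p under 0.05. No subunit is filled, PDS5A is filled in both fits, and ESCO2 in the block fit.

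Levels were compared between genes in FPKM, which are scaled by transcript length. In siCtrl the order was RAD21, SMC4, SMC3, NCAPD2, NCAPG, SMC2, SMC1A, STAG2, STAG1 and NCAPH, with group means from 42.0 ± 4.29 FPKM (SD, n = 3) for RAD21 to 7.88 ± 0.991 FPKM for NCAPH. RAD21, SMC4 and the pair STAG1 and NCAPH stood apart from their neighbours, while SMC3, NCAPD2, NCAPG and SMC2 overlapped from one to the next, as did SMC1A with STAG2 and STAG1 with NCAPH, and SMC2 did not overlap SMC1A. In siNUF2 the means ran from 46.2 ± 0.905 FPKM for RAD21 to 7.81 ± 0.773 FPKM for NCAPH. RAD21, SMC4 and the pair STAG1 and NCAPH again stood apart, with the other 6 overlapping from one to the next. The 5 cohesin genes summed to 90.7, 109 and 90.0 FPKM in siCtrl and to 101, 104 and 99.0 FPKM in siNUF2, and the 5 condensin I genes to 96.8, 101 and 82.8 FPKM and to 95.6, 102 and 85.6 FPKM.

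Ratios within a library compare partners that share its depth. The STAG2 to STAG1 ratio was 1.65, 1.63 and 1.61 in siCtrl and 1.81, 1.72 and 1.94 in siNUF2, and these ranges did not overlap. The means were 1.63 ± 0.0220 and 1.83 ± 0.111 (SD, n = 3), a difference of 0.16 on the log2 scale (exact two-sided permutation test over libraries, p = 0.1, the smallest that 3 against 3 allows, and 0.4 adjusted over the 4 ratios compared). Leaving out each library in turn kept the difference between 0.12 and 0.20. The ratio of SMC3 to SMC1A, the paired arms, was 1.37, 1.64 and 1.4999 in siCtrl and 1.16, 1.37 and 1.32 in siNUF2. It was lower at 3 of 3 numbers, but the groups overlapped (log2 difference -0.23, exact permutation p = 0.2, adjusted 0.4). SMC4 to SMC2 differed by -0.03 (exact permutation p = 0.6, adjusted 0.8) and NCAPG to NCAPH by 0.09 (exact permutation p = 0.8, adjusted 0.8), each with overlapping groups.

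**Figure D3:**
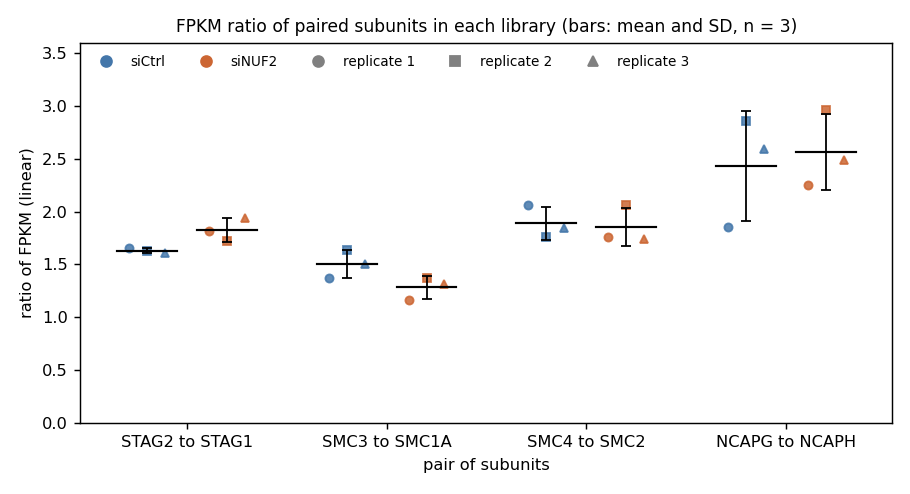
Linear ratio of FPKM for 4 pairs of subunits in each library, with the mean and SD of 3 libraries as bars. The siNUF2 points of STAG2 to STAG1 (1.72 to 1.94) all lie above the siCtrl points (1.61 to 1.65), and the other 3 ratios overlap.

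For all 10 subunits the group means differed by less in FPKM than the SD of the siCtrl libraries, a spread that includes any difference between replicate numbers. The CV within a group ran from 1.96% (RAD21, siNUF2) to 19.0% (NCAPD2, siCtrl), and for 9 of 10 genes the siCtrl range was the wider one. On log2 CPM (counts scaled to library size) centred on each gene's own mean, all 10 subunits lay below their mean in siCtrl replicate 3, from -0.41 (NCAPD2) to -0.07 (RAD21). In siCtrl replicate 2 and in siNUF2 replicate 2, 9 of 10 lay above it, with NCAPH as the exception in both. An effect of the replicate number was called for 0 of 10 subunits with edgeR (7.6% of all genes), and 5 of 10 had an unadjusted p under 0.05 (27.1% of all genes). With DESeq2 it was called for 3 of 10 (18.1% of all genes), which were NCAPD2, SMC4 and SMC3 (DESeq2 adjusted p = 0.00193, 0.0290 and 0.0361). What a replicate number shares is not stated in the labels.

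**Figure D4:**
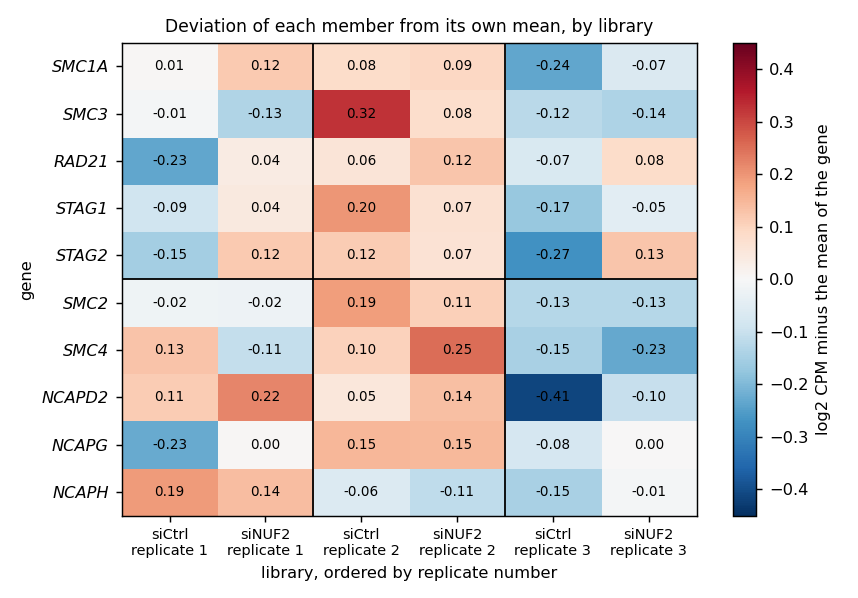
Deviation of each subunit (rows) from its own mean over the 6 libraries, in log2 CPM, with the libraries (columns) ordered by replicate number and the cohesin genes above the horizontal line. Red is above and blue below the mean, and siCtrl replicate 3 is below 0 for all 10 genes.

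Over the 6 libraries, which share these depth and replicate differences, the deviations of cohesin pairs had a median Pearson r of 0.67 (10 pairs, from 0.19 to 0.81). The condensin I pairs had a median of 0.39 (10 pairs, from -0.59 to 0.79), and the 25 pairs with one gene of each complex had 0.46. The lowest value was NCAPG with NCAPH, at -0.59, although both are subunits of one complex, and the highest was SMC1A with NCAPD2, at 0.96. The 3 genes outside these lists closest to the mean cohesin profile were AKAP13 (r = 0.990), CEP95 (r = 0.990) and ZMYM5 (r = 0.988), and those closest to the condensin profile were AL157935 (r = 0.998), MT-TP (r = 0.996) and OSGEPL1 (r = 0.995), all over 6 libraries and chosen from all genes tested.

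Promoters of genes that peak in G2 and mitosis often carry the cell-cycle genes homology region, whose core reads TTTGAA, and CCAAT boxes. These words were searched on both strands of the RefSeq promoters (GRCh38.p14, 250 bases before to 50 bases after a start), which matched 9 of the 10 genes by symbol. TTTGAA was present for 4 of 5 condensin I genes (NCAPD2, NCAPG, SMC2 and SMC4) and for 1 of 4 cohesin genes (SMC3), against 18.2% of the 27305 genes with a promoter. CCAAT was present for 2 condensin I genes (NCAPD2 and NCAPH) and 2 cohesin genes (STAG1 and STAG2), against 39.7% of genes. The windows around TTTGAA are shown because the word was the more common one among the condensin I genes. They are written 5′ to 3′ on the gene's strand (plus for all 5), with the word or its reverse complement in capitals. They lie at chr3:160399563-160399592 (SMC4), chr4:17810932-17810961 (NCAPG), chr9:104094294-104094323 (SMC2), chr12:6493945-6493974 (NCAPD2) and chr10:110567532-110567561 (SMC3), where the word begins 75, 35, 3, 145 and 151 bases before the RefSeq start of that promoter, which for SMC4, SMC2 and NCAPD2 lies downstream of the gene start given above.
SMC4: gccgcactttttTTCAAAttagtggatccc
NCAPG: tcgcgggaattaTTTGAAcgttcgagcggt
SMC2: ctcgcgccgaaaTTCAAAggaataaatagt
NCAPD2: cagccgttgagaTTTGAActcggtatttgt
SMC3: cagaattctagaTTCAAAagaaatccacca
A match describes letters in the window, not a bound factor. None of the 10 subunits passed the test between groups, so the test cannot compare genes with and without the word.

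Of 12 genes that load, release, acetylate, protect or cleave cohesin, 1 passed the test, and it was lower in siNUF2 (2.46% of all genes were called lower). This was PDS5A (ENSG00000121892), which binds the ring with WAPL and takes part in both its release and its acetylation. PDS5A was at 9.21, 11.02 and 8.86 FPKM in siCtrl and at 6.44, 6.64 and 6.57 FPKM in siNUF2. PDS5A thus had no overlap between groups, as did 23.9% of all genes. It fell by 0.55 on the log2 scale (SE 0.11, edgeR adjusted p = 0.0321), and by 0.54 with the replicate number as a block (adjusted p = 0.00576), a fit that called 7.91% of all genes lower. The call was lost when any one of the 6 libraries was left out, with adjusted p from 0.0671 to 0.129 and log2 fold changes from -0.60 to -0.45. Over all genes, 468 were called with every library and 124 to 251 with 1 library left out. DESeq2 also called PDS5A (adjusted p = 4.6e-04), where it called 8.29% of all genes. The limma and F-test alternatives did not call PDS5A (adjusted p from 0.0543 to 0.122).

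ESCO1 and ESCO2 encode the acetyltransferases that modify SMC3, ESCO2 acting in S phase. ESCO2 (ENSG00000171320) was at 1.94, 2.02 and 1.93 FPKM in siCtrl and at 1.42, 1.09 and 1.08 FPKM in siNUF2, with no overlap between groups. ESCO2 had a log2 fold change of -0.70 (SE 0.16, edgeR adjusted p = 0.0620), which did not pass, and it did pass with the replicate number as a block (log2 fold change -0.71, adjusted p = 0.0203) and with DESeq2 (adjusted p = 0.00392). ESCO1 was at 2.82, 4.57 and 3.28 FPKM in siCtrl and at 2.51, 2.63 and 2.39 FPKM in siNUF2. Like ESCO2 and 23.9% of all genes, ESCO1 had no overlap between groups. Its log2 fold change was -0.48 (edgeR adjusted p = 0.240). ESCO1 is named here after its values were seen. SMC3, the substrate of both enzymes, did not pass the test.

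The rest of the list did not pass either. The loader subunits NIPBL and MAU2 had log2 fold changes of 0.00 and -0.07, and the release factor WAPL and the PDS5A paralog PDS5B had -0.11 and -0.09. CDCA5 (sororin) and SGO1 (shugoshin), which protect cohesin from release, had 0.15 and 0.27 (edgeR adjusted p = 0.459 and 0.316). Each was higher in siNUF2 without overlap between groups, and 23.9% of all genes had no overlap in either direction. Separase (ESPL1) had 0.25, its inhibitor securin (PTTG1) -0.03, and HDAC8, which deacetylates SMC3, had 0.19. The median log2 fold change of the 12 genes was -0.05.

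**Figure D5:**
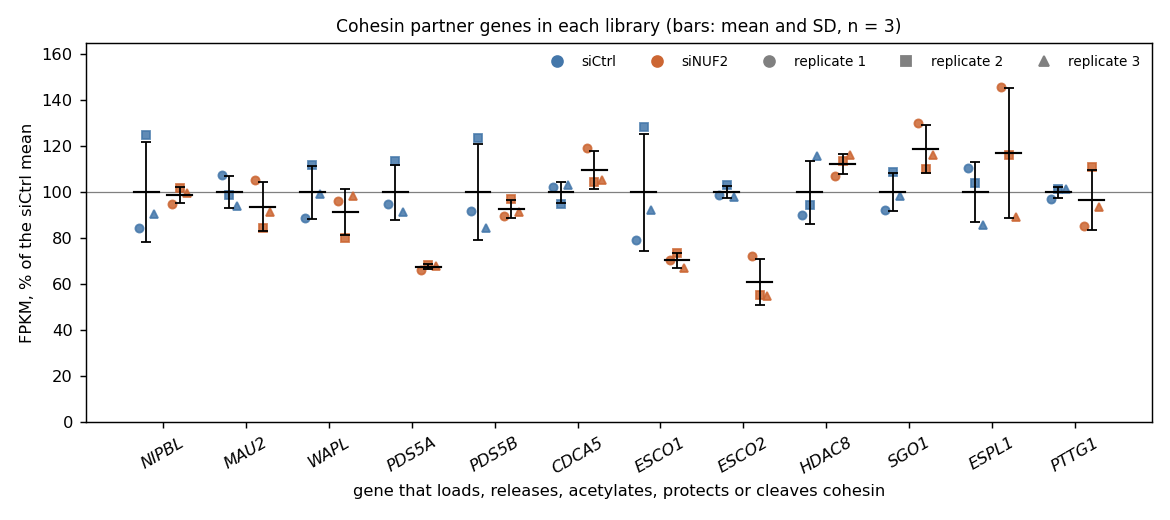
FPKM of 12 genes that act on cohesin, as a percentage of each gene's siCtrl mean, in each library, with the mean and SD of 3 libraries as bars. The siNUF2 points of PDS5A lie at 66.4 to 68.5% and those of ESCO2 at 54.8 to 72.5% of the siCtrl mean, below all siCtrl points of the same gene. Those of ESCO1 (67.1 to 73.7%) also lie below, and those of CDCA5 and SGO1 lie above, all siCtrl points of the same gene. Of all genes tested, 23.9% had no overlap between groups.

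The other SMC complexes and the mitotic factors that act with condensin held no called gene. Over all genes tested 3.99% were called, so lists this short could hold none at that share. Condensin II shares SMC2 and SMC4, and 0 of its 3 own subunits passed. Its largest change was NCAPG2, at 8.33, 8.58 and 7.43 FPKM in siCtrl and 6.22, 7.80 and 6.76 FPKM in siNUF2 (log2 fold change -0.21, edgeR adjusted p = 0.419). Of the SMC5/6 complex and its cofactors, 0 of 9 passed, and EID3, a paralog of the subunit NSMCE4A, had the largest log2 fold change, -0.82 (edgeR adjusted p = 0.269), at no more than 256 counts per library. Of 8 factors of chromosome condensation, 0 passed. The largest log2 fold change was that of AURKB, the kinase of the chromosomal passenger complex, at 0.23 (edgeR adjusted p = 0.380). CDK1, the kinase that starts mitosis, had -0.21 (edgeR adjusted p = 0.312). CDK1 and EID3 were lower in siNUF2 without overlap between groups, and 23.9% of all genes had no overlap in either direction. TOP2A, which decatenates DNA, had -0.10 and KIF4A, a chromokinesin that binds condensin, had 0.02.

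The germline paralogs of the cohesin subunits were low throughout. REC8, the meiotic kleisin, was at 0.800 to 1.44 FPKM (log2 fold change -0.28, edgeR adjusted p = 0.633). STAG3, SMC1B and RAD21L1 did not exceed 0.178 FPKM in any library, so they were under the filter of a mean of 1 FPKM and were not tested.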

How the data were processed

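RNA-seq of 3 siCtrl and 3 siNUF2 libraries of 8505C cells was analysed, with groups and replicate numbers from the sample labels. The poly(A) reads were trimmed with fastp, aligned to GRCh38 with HISAT2 and quantified with StringTie by the authors, who deposited FPKM and gene counts. The deposited counts are whole numbers without normalization, and the deposited FPKM are scaled by length and library size. Versions, the annotation release, the strand setting and the tool behind the counts are not given in the sources used here. All 12 value columns were used.

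Counts of genes with a mean of at least 1 FPKM (11725 genes) were tested with edgeR 4.0.16 in R 4.3.3 (TMM, quasi-likelihood test, Benjamini-Hochberg over all genes tested, threshold 0.05), with siRNA group as the only term. The kind of test the study names, an F-test of nested linear models, was an alternative, because counts were also available. It was run here on log2(FPKM + 1) and judged by the adjusted p, without the fold change cutoff that the study also used. The other alternatives were DESeq2 1.42.0 and its size factors, limma 3.58.1 on log2(FPKM + 1) and log2(FPKM + 0.1), no filter, a filter at a mean of 5 FPKM, the replicate number as a block, and leaving out each library. Libraries with the same number deviated together from their group means (r from 0.344 to 0.446, against -0.263 to -0.141 for unlike numbers), so the numbers pair the libraries. No replicate library was a copy of another (chi-square over degrees of freedom of 90.1 to 132).

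The genes named are all 10 subunits, NUF2, every called gene and the gene of largest absolute change in each list, and the 3 genes most correlated with each complex. Other genes of the lists were named after their values were seen. Members and lists were chosen with earlier results of these data known. Scripts were tested on simulated counts. Tables and plots used Python 3.11.15, numpy 2.4.6, pandas 2.3.3 and matplotlib 3.10.9. Promoter sequence came from RefSeq. The siRNA sequence and protein sequences were not used here.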

Additional observations from a re-analysis of the deposited data

How the results depend on the processing

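The count of called subunits was 0 under all 14 alternatives, with a smallest adjusted p of 0.159 (RAD21, replicate block), while the count over all genes was 468 as reported, 1705 with the replicate block, 972 with DESeq2, 188 with no filter, 78 with the F-test and 124 to 251 when 1 library was left out. The block changed the call of ESCO2 and of no other subunit or list gene. The partner list had 1 called gene, but 2 with the replicate block and with DESeq2, 0 with limma on log2(FPKM + 1), with the F-test and with no filter, and 0 to 0 when 1 library was left out. The count stayed at 1 with limma on log2(FPKM + 0.1), but the gene was ESCO2 (adjusted p 0.0493) and not PDS5A. PDS5A had adjusted p of 0.0543 and 0.0667 with limma, 0.122 with the F-test and 0.0941 with no filter. The replicate number effect was called for 3 subunits with DESeq2 in place of 0. The log2 fold change of NCAPH turned to -0.0088 with limma on log2(FPKM + 1) and with the F-test, to -0.0095 with limma on log2(FPKM + 0.1) and to -0.014 with the filter of 5. Leaving out 1 library turned the sign of SMC3 (-0.23 to 0.0033), STAG1 (-0.038 to 0.15), SMC2 (-0.10 to 0.060), SMC4 (-0.20 to 0.048) and NCAPH (-0.062 to 0.11), none of which was called. The other subunits kept their sign (SMC1A 0.0057 to 0.16, RAD21 0.084 to 0.23, STAG2 0.12 to 0.31, NCAPD2 0.0090 to 0.25 and NCAPG 0.011 to 0.20). ESCO2 and EID3 had no value at the filter of 5. The cause of these moves was not tested.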
